A study of Mus musculus with 6 samples.

Results

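Metalloproteinase and inhibitor genes were described as a family, from the deposited table of gene expression. Members were all genes whose symbol marks them as a matrix metalloproteinase (Mmp), an ADAM protease, an ADAMTS protease or ADAMTS-like protein (Adamtsl), or a tissue inhibitor of metalloproteinases (Timp). This gave 84 members among 34652 genes. Of these, 20 reached 1 FPKM (fragments per kilobase of gene, scaled to the library's depth) in 3 or more of the 6 libraries and are described in full. Another 4 reached 1 FPKM in 1 or 2 libraries, 41 were detected but stayed below 1 FPKM, and 19 were listed at 0 in all libraries.

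Cells for the libraries were sorted from the cerebrospinal fluid of mice at day 12 of leptomeningeal metastasis, seeded with LLC-LeptoM, a mouse lung carcinoma line selected for growth in the leptomeninges. Of 10 samples that the design text mentions, 6 were analysed here. All mice were of the Cx3cr1CreER:mTmG genotype and had been given tamoxifen. In such mice, cells whose Cx3cr1 locus drove the inducible Cre become green (GFP+) and other cells stay red. The 3 dLAM libraries hold resident macrophages, sorted as CD45+ CD11b+ F4/80+ Ly6C- GFP+ cells. The 3 mono-macrophage libraries hold GFP- cells of a pair of gates that were mixed, CD45+ CD11b+ F4/80+ cells and CD45+ CD11b+ F4/80low Ly6C+ cells. Age, sex, and whether mice were pooled or differ between libraries of a group are not given in the labels used here. The p-values therefore refer to the spread among these 6 libraries alone, some of which may be technical. The comparison asks how macrophages that had carried the Cx3cr1-driven label differ from unlabelled monocyte-derived cells in the same fluid.

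Matrix metalloproteinases are zinc endopeptidases made as inactive proenzymes that cut collagens, elastin, other matrix proteins and many cytokines. Some are secreted and others are tethered to the plasma membrane. ADAM proteases are mostly membrane proteins that release the outer parts of other surface proteins, ADAMTS proteases are secreted and cut or organise matrix, and TIMPs block these enzymes. In macrophages and neutrophils these genes are known for roles in passage through barriers, in tissue remodelling and in the release of signals such as tumour necrosis factor.

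Estimated depth lay between 1.23e+07 and 1.70e+07 fragments per library. Across genes, which are not independent replicates, the correlation was 0.965 to 0.979 within a population and 0.876 to 0.905 between populations. Ddx3y, a gene of the Y chromosome, stood at 10.1 FPKM in dLAM library 3, at 10.6 in mono-macrophage library 2 and between 1.56 and 2.68 in the other libraries. As a check of the labels, all 12 border macrophage markers were higher in dLAMs (summed FPKM 890 to 990 against 140 to 271) and all 10 classical monocyte markers were lower (409 to 589 against 2840 to 4619). Over all genes tested, 19.9% were higher and 10.6% lower. Of the border macrophage markers, 6 reached 1 FPKM in dLAM libraries only and so had to differ. Ly6C was used in sorting, so Ly6c2 among the monocyte markers is no independent check. Markers of other cells were unequal too. In dLAMs, 13 of 14 dendritic cell markers (310 to 440 against 50.3 to 53.4), 12 of 12 T cell markers (206 to 252 against 8.71 to 34.4), 5 of 5 tested B and plasma cell markers (68.4 to 345 against 13.8 to 37.5) and 4 of 4 tested mast cell, basophil and eosinophil markers (27.6 to 82.9 against 0.309 to 0.506) were higher. Of 16 neutrophil and granule genes, 10 were lower in dLAMs and 6 did not pass, with sums of 1405 to 1808 against 2241 to 12811. All 3 tested carcinoma markers were higher in dLAMs, with a sum over 8 genes of 27.4 to 32.2 against 2.12 to 3.32. Of the tested genes, Epcam and Krt18 reached 1 FPKM in dLAM libraries only. Cdh1 alone stood at 22, 21 and 21.9 FPKM in the dLAM libraries. Krt7, not tested, was lower in dLAMs (0.134, 0.123 and 0.234 against 0.263, 0.406 and 0.246). Krt8, Krt19 and Muc1 overlapped between the populations, and Sftpc was listed at 0. Fibroblast markers summed to 5.27 to 7.38 against 0.746 to 1.99 FPKM over 12 genes, of which 1, Col3a1, was tested and was higher. Endothelial markers summed to 7.01 to 7.86 against 4.15 to 5.32, with 1 of 3 tested genes higher. The part of these cells in the differences below was not tested. In bulk RNA, fewer cells of a type and less RNA per cell cannot be told apart.

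The collagenase gene Mmp8 was the most abundant member in mono-macrophages, and the membrane protease gene Mmp14 in dLAMs. Mmp14 and the inhibitor gene Timp2 were several-fold higher in dLAMs, as were the elastase gene Mmp12 and Adam23 at low levels. Mmp8 and Mmp19 were lower in dLAMs. The sheddase genes Adam10 and Adam17 overlapped between the populations and did not pass. In counts, 5 of the 20 members passed the test as higher in dLAMs (25%) and 2 as lower (10%). Over all 11317 genes tested 19.9% were higher and 10.6% were lower in dLAMs, and 30.5% passed in either direction, so the members passed about as often as genes in general. Among all genes that passed, 65.1% were higher with the deposited scaling, 51.9% when libraries were scaled by median ratios and 51.4% after quantile normalization. The latter shifted the all-gene median from 0.06 to -0.05. The median log2 fold change of the 20 members was 0.33, against 0.06 over all genes. Mmp12 and Adam23 reached 1 FPKM in dLAM libraries only, so for these a difference follows from the threshold for testing, and their p-values are no support for it. The same holds for marker genes and related genes that reached 1 FPKM in dLAM libraries only, among them 6 of 12 border macrophage markers, 8 of 14 dendritic cell markers and 4 of 4 mast cell, basophil and eosinophil markers. The number of members higher in dLAMs was 3 with a filter of 5 FPKM, where 1247 of 6579 genes tested were higher. It was 8 with a term for Y-linked RNA (2408 of 11317 genes) and 12 with no filter (2888 of 22145 genes). With no filter, members below 1 FPKM were tested too. Every dLAM library lay above every mono-macrophage library for 8 members and below for 3, where 29.3% and 16.9% of all tested genes did so, 46.2% together.

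**Figure D1:**
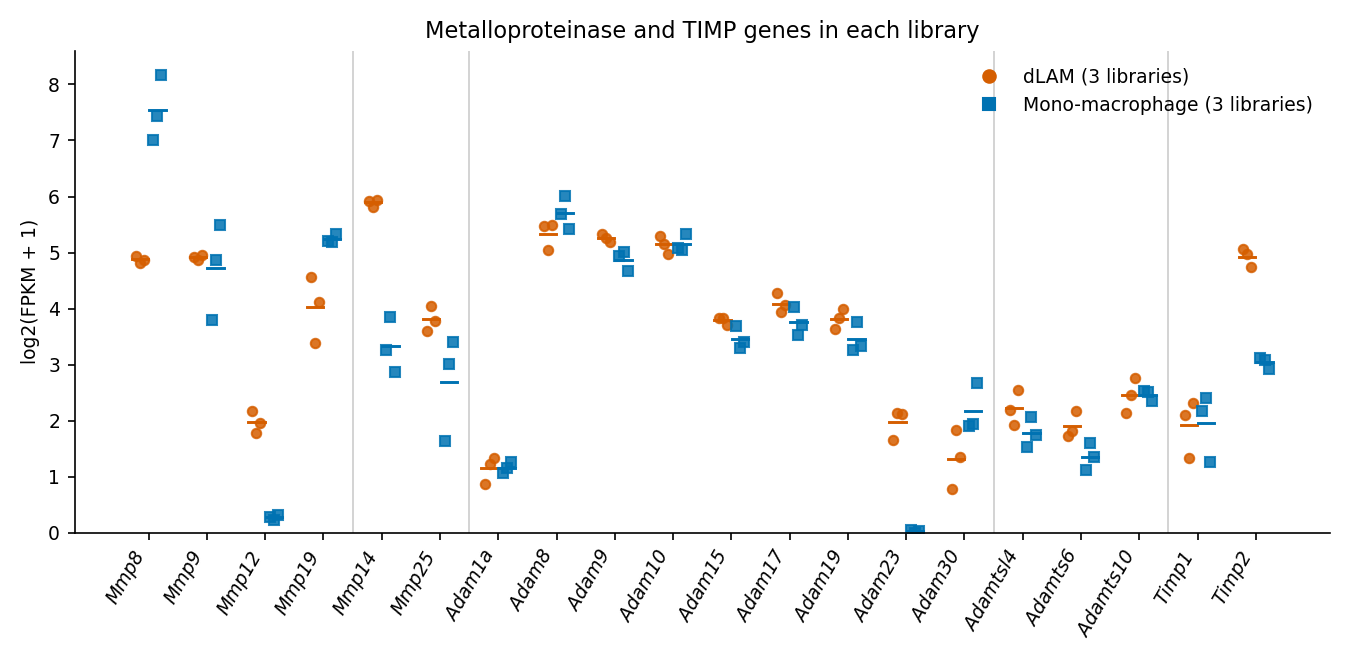
Expression of the 20 members in each library, as log2(FPKM + 1) on the vertical axis, with circles for the 3 dLAM libraries, squares for the 3 mono-macrophage libraries and lines for their means; grey lines part secreted MMP, membrane MMP, ADAM, ADAMTS with ADAMTSL, and TIMP genes. The groups are far apart for Mmp8, Mmp12, Mmp14, Adam23 and Timp2, and overlap for Mmp9, Adam10 and Timp1.

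**Figure D2:**
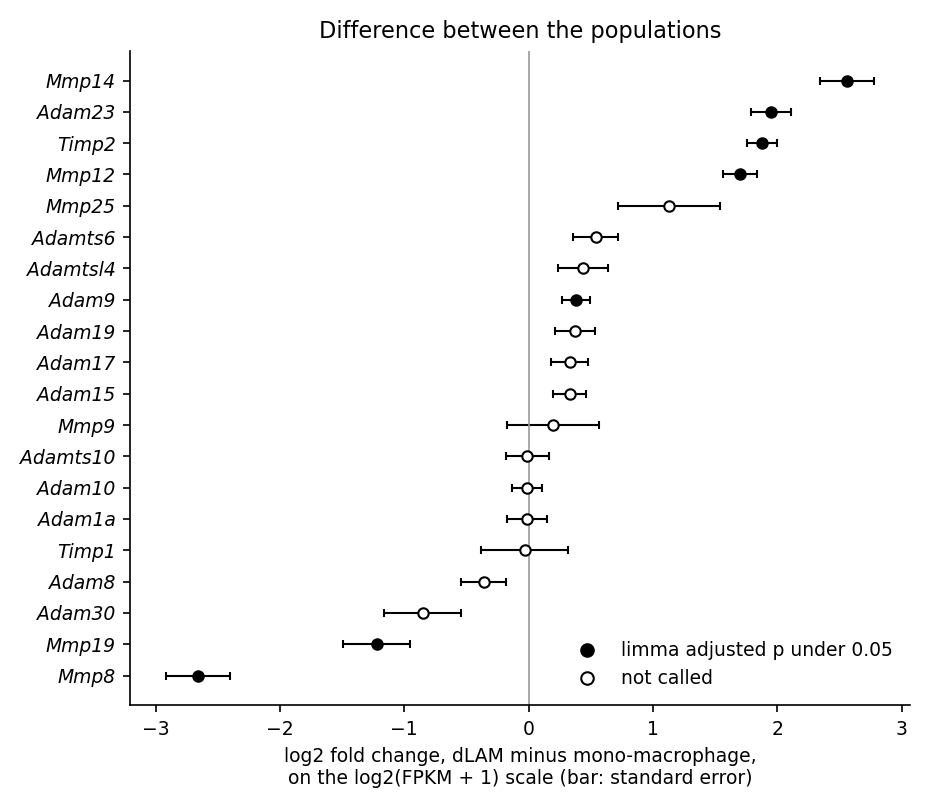
Log2 fold change of each member, dLAM minus mono-macrophage, on the log2(FPKM + 1) scale with its standard error; filled points passed limma at an adjusted p under 0.05. Mmp14 stands at 2.56 and Mmp8 at -2.66, while 13 members did not pass.

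Mmp8, the neutrophil collagenase, which is stored in granules and cuts fibrillar collagens, stood at 127, 173 and 286 FPKM in mono-macrophage libraries 1, 2 and 3. In dLAM libraries 1, 2 and 3 it stood at 29.6, 27.3 and 28.3 FPKM. Every mono-macrophage library was more than 4 times above any dLAM library, and the dLAM libraries lay close together. The mean was 196 ± 81.4 against 28.4 ± 1.17 FPKM (SD, n = 3), a log2 fold change of -2.66 (SE 0.26, adjusted p = 0.00034). Without single libraries the log2 fold change of Mmp8 ranged from -2.93 to -2.35. The level of Mmp8 in mono-macrophages went with the summed FPKM of the neutrophil and granule genes, which was 2241, 7683 and 12811 in libraries 1, 2 and 3. In the dLAM libraries that sum was 1808, 1604 and 1405. Single genes of the list did not all have this order. Among mono-macrophage libraries, Elane, Mpo, Ctsg, Csf3r, Cxcr2 and Mcemp1 were highest in library 2, and the others in library 3. Ly6g, a defining neutrophil surface marker, stood at 0.972, 3.12 and 12.2 FPKM in the mono-macrophage libraries and at 3.12, 2.55 and 1.58 in the dLAM libraries, and did not pass (log2 fold change -0.50, SE 0.61, adjusted p = 0.58). The part of neutrophil RNA in the difference of Mmp8 was not tested.

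Mmp9, gelatinase B, a further granule enzyme that is also made by macrophages, did not pass (log2 fold change 0.20, SE 0.37, adjusted p = 0.73). Its FPKM was 29.4, 28.2 and 30.1 in the dLAM libraries and 12.9, 28.2 and 44.1 in mono-macrophage libraries 1, 2 and 3. The mono-macrophage libraries spread over a wide range around the dLAM level, in the same order as Mmp8 and the sum of the granule genes. The sign rests on 1 library: without mono-macrophage library 1 the log2 fold change was -0.26 (adjusted p = 0.33), and without library 3 it was 0.59 (adjusted p = 0.2).

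**Figure D3:**
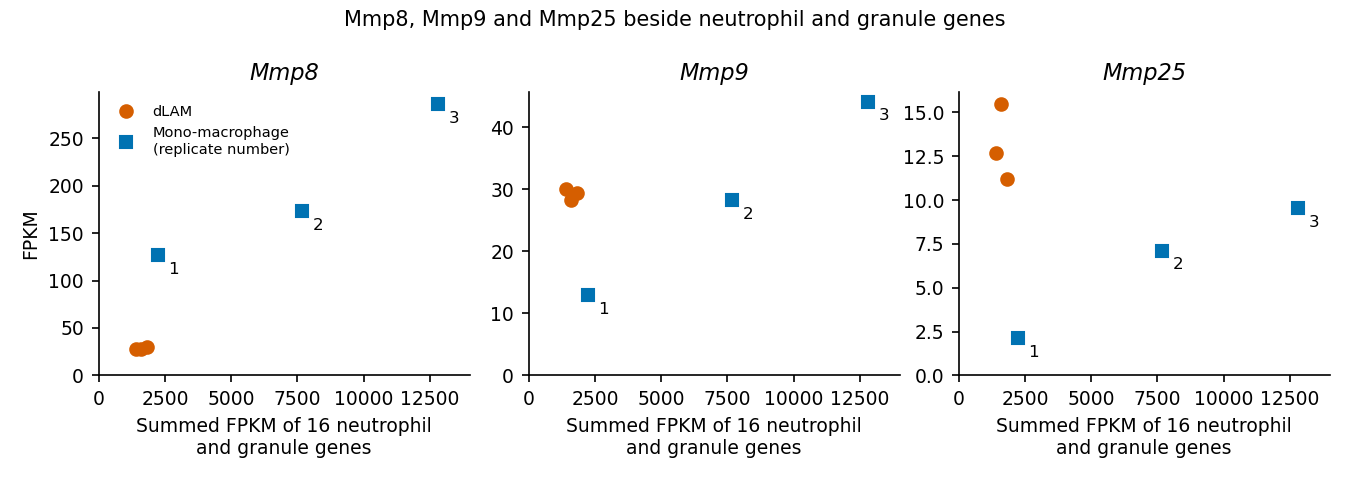
FPKM of Mmp8, Mmp9 and Mmp25 (vertical axes) beside the summed FPKM of 16 neutrophil and granule genes (horizontal axis) in each library; numbers mark mono-macrophage libraries. All 3 genes are lowest in mono-macrophage library 1 and highest in library 3 within that group, while the dLAM libraries have low sums, low Mmp8 and the highest Mmp25.

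Mmp19, a secreted enzyme that cuts basement membrane proteins, was lower in dLAMs. It stood at 22.7, 9.41 and 16.4 FPKM in the dLAM libraries and at 36.1, 35.5 and 39.4 in the mono-macrophage libraries. Here the dLAM libraries varied most, with library 2 lowest, and the groups did not overlap. The log2 fold change was -1.22 (SE 0.27, adjusted p = 0.012). It was -0.90 without dLAM library 2 (adjusted p = 0.01), and within the 4 libraries with little Ddx3y it was -1.3 and did not pass (adjusted p = 0.07). An antisense gene and Tmem198b overlap exons of Mmp19 on the other strand, and their reads cannot be told apart without strand.

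Mmp12, macrophage elastase, which cuts elastin, was low but higher in dLAMs, at 3.53, 2.45 and 2.87 FPKM against 0.213, 0.171 and 0.248. The lowest dLAM library was far above the highest mono-macrophage library. The ratio of means was 14 and the log2 fold change 1.70 (SE 0.14). Mmp12 reached 1 FPKM in dLAM libraries only, so that it was tested at all required a difference. Between 17 and 379 fragments per library are estimated to lie behind these values. The collagenase gene Mmp13 lay just outside the threshold, with 1.87, 0.972 and 1.26 FPKM against 0.382, 0.399 and 0.483. Mmp2, gelatinase A, the enzyme that Mmp14 protein activates, was also just outside. It stood at 1.38, 0.481 and 0.795 FPKM in dLAMs and at 0.024, 0 and 0 in mono-macrophages. Both had dLAM libraries above all mono-macrophage libraries, and both fell short of the threshold for testing, so their values are given without a test.

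Mmp8, Mmp12 and Mmp13 lie in a cluster of 10 Mmp genes on chromosome 9 (mm10, GENCODE M21), from 7272514, the start of Mmp13, to 7699585, the end of Mmp7. Along the chromosome the genes stand in the order Mmp13, Mmp12, Mmp1b, Mmp3, Mmp1a, Mmp10, Mmp8, Mmp27, Mmp20 and Mmp7. Within this stretch Mmp12 was higher in dLAMs and Mmp8 lower. Mmp1a, Mmp1b and Mmp20 were listed at 0 in all 6 libraries. Mmp27, next to Mmp8, reached 0.178, 0.173 and 0.429 FPKM in mono-macrophages against 0.0823, 0.0495 and 0.049 in dLAMs, in the direction of Mmp8 but at a far lower level. Mmp3, the gene of stromelysin 1, reached 0.376, 0.0452 and 0.851 FPKM in dLAMs. Mmp12 and Mmp1b overlap on opposite strands, and Mmp1b was listed at 0.

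**Figure D4:**
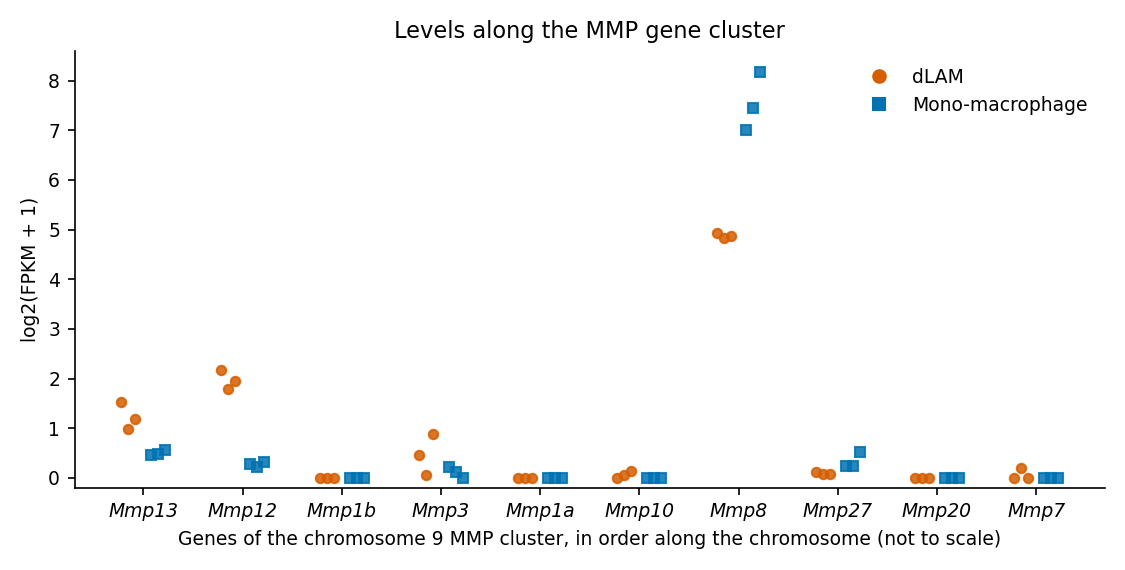
Levels of the 10 genes of the chromosome 9 cluster in their order along the chromosome, as log2(FPKM + 1); circles are dLAM and squares mono-macrophage libraries. Mmp8 stands out in both populations and is higher in mono-macrophages, Mmp12 and Mmp13 lie higher in every dLAM library, and Mmp1b, Mmp1a and Mmp20 are at 0.

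The promoters of the 3 clustered genes that were detected near or above 1 FPKM are shown because MMP promoters are known for binding sites of the transcription factor AP-1 close to a TATA box. The stretches are the 150 bases before the RefSeq start of each gene (GRCm38.p6, plus strand, from the 250 bases before to 50 after a start that the RefSeq table holds). Capitals mark matches that lie wholly within a stretch, to the AP-1 motif TGANTCA, which reads the same on both strands, and to TATAAA on either strand. The motifs do not overlap each other here. Mmp12 has 2 RefSeq starts, of which 1 was left out because its stretch overlaps an annotated exon of the gene. The start shown is the one with a match.
Mmp8, chr9:7558279-7558428: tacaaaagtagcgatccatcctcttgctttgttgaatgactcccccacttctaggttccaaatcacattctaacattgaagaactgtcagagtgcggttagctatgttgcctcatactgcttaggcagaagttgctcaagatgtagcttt
Mmp12, chr9:7347224-7347373: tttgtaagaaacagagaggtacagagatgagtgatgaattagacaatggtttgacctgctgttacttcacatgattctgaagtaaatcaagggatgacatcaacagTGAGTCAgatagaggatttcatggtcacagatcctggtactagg
Mmp13, chr9:7272364-7272513: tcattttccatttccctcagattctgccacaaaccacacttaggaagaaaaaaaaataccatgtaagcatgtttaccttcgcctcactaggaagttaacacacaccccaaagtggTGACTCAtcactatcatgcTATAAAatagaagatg

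Mmp12 has an AP-1 match that begins 44 bases before its start, and TATAAA that begins 4 bases after it, outside the stretch shown. Mmp13 has an AP-1 match that begins 35 bases before its start, followed by TATAAA 16 bases before it. Mmp8 has no AP-1 match in its window, and its match to TTTATA, the reverse complement of TATAAA, begins 3 bases before the start and crosses it. All 10 genes of the cluster had a window, and 8 of them, all but Mmp8 and Mmp27, held TGANTCA. Over the 32851 windows of the RefSeq table, 7.81% held TGANTCA and 13.6% held TATAAA or its reverse complement. Of the family's 84 genes 53 matched a promoter, with 58 windows in all, of which 13 held the AP-1 motif (22.4%) and 15 the TATA motif (25.9%). The genes with a match range from Mmp12, higher in dLAMs, to Mmp1a, Mmp1b and Mmp20, which were listed at 0. Outside the cluster, Adam19 was the only other one of the 20 described members with an AP-1 match among the 14 that had a promoter in the table. No AP-1 match was listed for Mmp9 or Mmp19. As only 14 of the 20 described members had a promoter to search, this does not show that theirs lack the motif.

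Mmp14 (chromosome 14, 54431612 to 54445364) encodes MT1-MMP, a transmembrane collagenase that also activates the proenzyme of MMP2. It stood at 59.8, 55.4 and 60.6 FPKM in the dLAM libraries and at 8.65, 13.5 and 6.35 in the mono-macrophage libraries. All dLAM libraries were within a narrow range more than 4 times above the highest mono-macrophage library. The mean was 58.6 ± 2.83 against 9.49 ± 3.62 FPKM (SD, n = 3), which is 6.18-fold higher. The log2 fold change was 2.56 (SE 0.22, adjusted p = 0.00022) and ranged from 2.33 to 2.82 without single libraries. Fibroblast markers, summed over 12 genes, stood at 7.38, 5.43 and 5.27 FPKM and dendritic cell markers at 342, 440 and 310 FPKM in dLAM libraries 1, 2 and 3, and both sums were lower in every mono-macrophage library. Their part in the level of Mmp14 was not tested.

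Mmp25 encodes MT6-MMP, or leukolysin, a lipid-anchored enzyme known from neutrophils. It stood at 11.2, 15.5 and 12.7 FPKM in dLAMs and at 2.12, 7.11 and 9.53 in mono-macrophages. The groups did not overlap, but mono-macrophage library 1 was far below libraries 2 and 3, and the difference did not pass (log2 fold change 1.13, SE 0.41, adjusted p = 0.077). It passed without mono-macrophage library 1, at a smaller log2 fold change of 0.60 (adjusted p = 0.046), and without library 3, at 1.48 (adjusted p = 0.035). Mmp8 and Mmp25, both known from neutrophils, thus stood in opposite order between the populations. The other membrane MMP genes, Mmp15, Mmp16, Mmp17 and Mmp24, stayed below 1 FPKM.

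The make-up of the MMP family differed within each library, a comparison that does not depend on how libraries are scaled. Mmp8 made up 67.3%, 67.0% and 73.8% of the summed FPKM of all Mmp genes in mono-macrophages and 18.5%, 19.4% and 18.3% in dLAMs. Mmp14 made up 4.57%, 5.2% and 1.64% in mono-macrophages and 37.3%, 39.3% and 39.2% in dLAMs. Mmp9 took 6.79%, 10.9% and 11.4% against 18.3%, 20% and 19.5%, so its share was higher in every dLAM library although its level did not pass. Mmp14 exceeded Mmp8 in each dLAM library by 2.02, 2.03 and 2.15 times, while Mmp8 exceeded Mmp14 in mono-macrophages by 14.7, 12.9 and 45.0 times. The summed FPKM of all Mmp genes was 161, 141 and 155 in dLAMs and 190, 259 and 387 in mono-macrophages. These shares and sums are descriptions and were not tested.

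**Figure D5:**
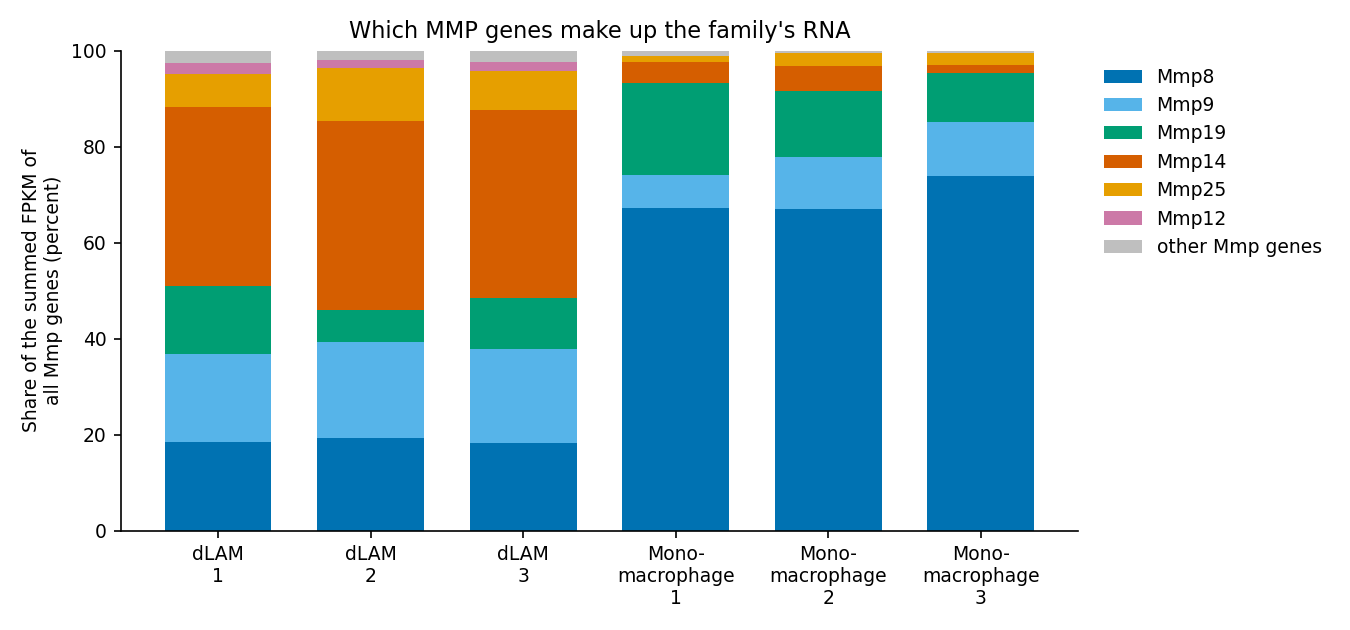
Share of each gene in the summed FPKM of all Mmp genes, in percent, for each library; bars are stacked to 100. Mmp8 fills about 67 to 74 percent of each mono-macrophage bar, and Mmp14 is the widest band in each dLAM bar, at 37.3 to 39.3 percent.

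Timp2, whose protein inhibits MMPs and also tethers the MMP2 proenzyme to MT1-MMP, was higher in dLAMs together with Mmp14. It lies on chromosome 11, 118301069 to 118355740. It stood at 32.4, 30.4 and 25.9 FPKM against 7.73, 7.51 and 6.58. The groups were far apart and each was tight, at 29.5 ± 3.35 against 7.27 ± 0.612 FPKM (SD, n = 3). This is 4.06-fold higher, with a log2 fold change of 1.88 (SE 0.12, adjusted p = 5.1e-05). Per library the ratio of Mmp14 to Timp2 was 1.85, 1.82 and 2.34 in dLAMs and 1.12, 1.79 and 0.966 in mono-macrophages, so this ratio differed far less than either gene.

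Timp1, an inducible inhibitor that binds the MMP9 proenzyme, was low in both populations. It stood at 3.32, 1.53 and 3.96 FPKM in dLAMs and 3.54, 4.32 and 1.4 in mono-macrophages, on an estimated 17 to 54 fragments. The groups overlapped fully and the log2 fold change was -0.03 (SE 0.35, adjusted p = 0.96). Timp3, which also inhibits ADAM17, reached at most 0.267 FPKM, and Timp4 was listed at 0 in 5 of 6 libraries. Timp2 made up 90.1%, 94.9% and 86.0% of the summed Timp FPKM in dLAMs and 68.4%, 63.3% and 82.4% in mono-macrophages. The summed Mmp FPKM was 4.47, 4.4 and 5.15 times the summed Timp FPKM in dLAMs and 16.8, 21.8 and 48.5 times in mono-macrophages. The groups did not overlap in this untested ratio, which says nothing about the amounts of protein or of active enzyme.

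The summed FPKM of all ADAM genes was 170, 156 and 162 in dLAMs and 154, 164 and 145 in mono-macrophages, so the sums overlapped. Of 33 ADAM genes 9 were tested, 2 were higher in dLAMs (22.2%, against 19.9% of all genes tested) and 0 lower by limma (10.6% of all genes); at an unadjusted p under 0.05, 1 was lower (Adam30). Adam10, the sheddase of Notch receptors and many adhesion molecules, stood at 38.5, 34.6 and 30.6 FPKM against 32.8, 32.1 and 39.1. Its log2 fold change was -0.01 (SE 0.12, adjusted p = 0.98), the libraries of both groups being mixed in order. Adam17, the converting enzyme of tumour necrosis factor, stood at 18.3, 14.3 and 15.7 FPKM against 15.4, 10.6 and 12.1 and did not pass (0.33, SE 0.15, adjusted p = 0.15). It passed without mono-macrophage library 1 (0.46, adjusted p = 0.047).

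Adam8, a protease of leukocytes that is anchored in the membrane, was the most abundant ADAM gene in mono-macrophages. It stood at 50.6, 63.3 and 41.7 FPKM there and at 43.6, 32.2 and 43.8 in dLAMs. The groups overlapped, and the log2 fold change of -0.36 did not pass (SE 0.18, adjusted p = 0.18). Adam9, a widely expressed sheddase, passed with a small difference. It stood at 39.1, 37.2 and 35.6 FPKM in dLAMs against 29.6, 31.3 and 24.6, a log2 fold change of 0.38 (SE 0.11, adjusted p = 0.038). All dLAM libraries were higher, but the call held in 6 of 17 alternative analyses only. It was lost without dLAM library 1 (adjusted p = 0.12), 2 (adjusted p = 0.1) or 3 (adjusted p = 0.076), and without mono-macrophage library 1 (adjusted p = 0.059) or 3 (adjusted p = 0.072).

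Adam15, an ADAM with an integrin-binding motif, stood at 13.3, 13.3 and 12.1 FPKM in dLAMs against 11.9, 8.8 and 9.58 and did not pass (0.33, SE 0.13, adjusted p = 0.086). It passed without mono-macrophage library 1 (0.45, adjusted p = 0.028). Adam19, meltrin beta, stood at 11.5, 13.2 and 14.9 FPKM against 8.64, 12.5 and 9.08 and did not pass either (0.37, SE 0.16, adjusted p = 0.12). That gene passed without mono-macrophage library 2 (0.52, adjusted p = 0.028) and with a term for Y-linked RNA (adjusted p = 0.032). All dLAM libraries lay above the others for Adam15, while the groups overlapped for Adam19. Exons of Adam8, Adam15, Adam17 and Adam19 overlap genes on the other strand, so a part of their reads is uncertain in origin.

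Adam23, an ADAM that lacks protease activity and binds integrins, showed the sharpest contrast of the ADAM genes. It stood at 2.16, 3.41 and 3.37 FPKM in dLAM libraries 1, 2 and 3 and at 0.035, 0 and 0.0253 in mono-macrophages, where library 2 lists it at 0. The log2 fold change was 1.95 on the log2(FPKM + 1) scale (SE 0.16). Adam23 reached 1 FPKM in dLAM libraries only, so that it was tested at all required a difference. In the dLAM libraries the summed dendritic cell markers were 342, 440 and 310 FPKM, and in the mono-macrophage libraries 53.4, 50.3 and 53.0. Their part in the level of Adam23 was not tested. Adam11, another ADAM without protease activity, lay just outside the threshold, at 0.827, 1.94 and 1.28 FPKM against 0.0382, 0.0819 and 0.

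Adam30 and Adam1a are known from testis and were low here. Adam30 stood at 0.728, 2.57 and 1.56 FPKM in dLAMs and at 2.74, 2.84 and 5.41 in mono-macrophages, a log2 fold change of -0.85 (SE 0.31, adjusted p = 0.076). Although the groups did not overlap, they nearly touched, and the difference passed without dLAM library 2 (-1.10, adjusted p = 0.047) and with quantile normalization (-1.10, adjusted p = 0.038). Adam1a stayed between 0.831 and 1.54 FPKM in all libraries (log2 fold change -0.01, SE 0.16, adjusted p = 0.96), and its exons overlap those of Tmem116, Mapkapk5 and a predicted gene. Of the other ADAM genes, 12 stayed below 1 FPKM and 11 were listed at 0. Adam28, known from lymphocytes, reached at most 0.0367 FPKM.

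By limma, 0 of 3 tested ADAMTS and ADAMTSL genes passed, and 1, Adamts6, had an unadjusted p under 0.05. Adamts6 and Adamts10 are related enzymes with roles in the fibrillin microfibrils of the matrix, and Adamtsl4 is a fibrillin-binding protein without a protease domain. Adamts6 stood at 2.31, 2.51 and 3.51 FPKM in dLAMs and 1.17, 2.05 and 1.56 in mono-macrophages. Its groups did not overlap and the log2 fold change was 0.54 (SE 0.18, adjusted p = 0.058). It passed without mono-macrophage library 2 (0.67, adjusted p = 0.037) and with a term for Y-linked RNA (adjusted p = 0.017). Adamtsl4 had a log2 fold change of 0.44 (SE 0.20, adjusted p = 0.15), and passed with that term (adjusted p = 0.044). Adamts10, which ranged from 3.39 to 5.8 FPKM over the 6 libraries, had -0.01 (SE 0.17, adjusted p = 0.96). Adamts1, which cuts the proteoglycans versican and aggrecan, was just outside the threshold. It stood at 0.835, 0.772 and 1.05 FPKM in dLAMs and was listed at 0 in each mono-macrophage library.

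The lists of related genes were chosen with earlier results of these data known, so their shares beside those over all genes are descriptions only. Among genes that work with these proteases, those that mature or carry the sheddases mostly did not pass. Of 11 tested partners of ADAM10 and ADAM17 among 18 listed, 1 was higher and 1 lower in dLAMs (9.09% each, against 19.9% and 10.6% of all genes; median log2 fold change 0.10 against 0.06). Tspan33 and Tspan5 encode tetraspanins that escort ADAM10 to the cell surface. Tspan33 stood at 1.43, 2.5 and 1.98 FPKM against 0.247, 0.136 and 0.0863, a log2 fold change of 1.35 (SE 0.17). It reached 1 FPKM in dLAM libraries only, so that it was tested at all required a difference. Tspan5 was lower, at 1.89, 1.9 and 1.63 FPKM against 3.13, 2.99 and 2.42 (-0.45, SE 0.13, adjusted p = 0.034), a call that held in 7 of 16 alternatives and was lost without any 1 dLAM library or without mono-macrophage library 1 or 2. Rhbdf2, which encodes the iRhom2 protein that brings ADAM17 to the surface, stood at 10.4, 11.2 and 12.1 FPKM against 13.2, 14.0 and 8.31 (-0.04, SE 0.19, adjusted p = 0.9).

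Of 20 tested substrates of ADAM10 and ADAM17 among 26 listed, 9 were higher in dLAMs (45%) and 5 lower (25%), against 19.9% and 10.6% of all genes, with a median of 0.52 against 0.06. Of those higher, Lag3 and Cd163 reached 1 FPKM in dLAM libraries only and so had to differ. The receptor tyrosine kinase gene Axl stood at 62.2, 79.7 and 52.6 FPKM in dLAMs against 4.17, 2.07 and 4.74, and its relative Mertk at 18.9, 17.1 and 18.0 against 0.789, 1.18 and 3.65. Cxcl16, a chemokine held on the membrane until it is cut, stood at 47.3, 54.5 and 54.0 FPKM against 5.12, 4.66 and 2.46. Lag3, an immune receptor that binds MHC class II, stood at 11.6, 7.89 and 7.52 FPKM against 0.473, 0.23 and 0.76. For these 4 the lowest dLAM library lay well above the highest mono-macrophage library, and for Axl, Cxcl16 and Mertk the adjusted p lay between 5.1e-05 for Cxcl16 and 0.00061 for Mertk. The lower substrates included Cd44, Il6ra, Notch1 and Tnfrsf1a, with log2 fold changes of -0.95, -0.89, -0.38 and -0.36. The calls of Notch1 and Tnfrsf1a were lost in several alternatives, among them any analysis without 1 dLAM library. Tnf itself stood at 18.5, 25.7 and 23.6 FPKM in dLAMs against 16.7, 17.5 and 10.3, and did not pass (0.60, SE 0.21, adjusted p = 0.068). Lag3 is also known from T cells, whose markers were higher in dLAMs; their part in its level was not tested.

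Of 12 tested matrix proteins and matrix receptors that MMP or ADAMTS enzymes cut, among 26 listed, 8 were higher in dLAMs (66.7%) and 4 lower (33.3%), against 19.9% and 10.6% of all genes, with a median of 0.75 against 0.06. Of those higher, Sparc, Nid2 and Col3a1 reached 1 FPKM in dLAM libraries only and so had to differ. Sparc, a collagen-binding protein, stood at 13.7, 4.48 and 4.17 FPKM against 0.231, 0.129 and 0.159 (log2 fold change 2.67, SE 0.37), with dLAM library 1 about 3 times above the other dLAM libraries. Spp1, osteopontin, stood at 79.9, 45.1 and 69.8 FPKM against 11.1, 17.6 and 16.7. The syndecan gene Sdc3 stood at 75.8, 86.6 and 56 FPKM against 22.6, 12.3 and 21.5. Vcan, the proteoglycan versican and a monocyte marker, was lower at 49.1, 28.7 and 44.3 FPKM against 167, 241 and 201 (-2.31, SE 0.22, adjusted p = 0.00029). Fn1, fibronectin, was abundant and lower, at 520, 423 and 467 FPKM against 1031, 1028 and 847. The collagen gene Col3a1, higher in dLAMs, is also a fibroblast marker and stood at 1.38, 1.28 and 1.1 FPKM there. Over the alternatives, between 4 and 13 genes of this list were higher and between 2 and 4 lower.

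Other inhibitors and clearance receptors were measured in a list of 14, of which 6 were tested, 3 were higher (50%) and 1 lower (16.7%), against 19.9% and 10.6% of all genes (median 0.67 against 0.06). None of those higher is an inhibitor of metalloproteinases: Cd63 encodes a tetraspanin that binds TIMP1, Cst3 encodes cystatin C, which inhibits cysteine proteases, and Serpine2 encodes an inhibitor of serine proteases. Cst3 stood at 412, 424 and 386 FPKM against 187, 119 and 171 (1.38, SE 0.18, adjusted p = 0.0012). Cd63 stood at 74.3, 47.9 and 55.4 FPKM against 8.71, 25.9 and 24.4 (1.66, SE 0.38, adjusted p = 0.015), and missed the threshold without dLAM library 1 (adjusted p = 0.059). Serpine2, which reached 1 FPKM in dLAM libraries only, had a log2 fold change of 0.95. Its call held in 7 of 16 alternatives; it was lost without dLAM library 1 or 2 or mono-macrophage library 1 or 3. Thbs1, thrombospondin 1, was lower (-1.07, SE 0.33, adjusted p = 0.044), a call lost when any 1 of the 6 libraries was left out. The membrane-anchored MMP inhibitor gene Reck was below threshold, at 0.333, 0.288 and 0.31 FPKM against 0.158, 0.471 and 0.742. Bsg, which encodes an inducer of MMP genes, stood at 57.6, 57.8 and 41.9 FPKM against 39.2, 42.3 and 36.4 (0.39, SE 0.14, adjusted p = 0.077) and passed without dLAM library 3 (0.54, adjusted p = 0.018). Lrp1, an uptake receptor for protease and inhibitor complexes, stood at 123, 117 and 118 FPKM against 125, 106 and 89.1 (0.17, SE 0.13, adjusted p = 0.38).

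Of 8 tested metallopeptidases outside the family among 23 listed, 4 were higher in dLAMs (50%, against 19.9% of all genes) and 0 lower by limma (against 10.6%), with a median of 0.58 against 0.06. Npepps (log2 fold change -0.34) and Cpd (0.62) had an unadjusted p under 0.05 only. Anpep and Cpe reached 1 FPKM in dLAM libraries only and so had to differ. Anpep, aminopeptidase N or CD13, showed a wide gap, at 20.1, 21.8 and 22.2 FPKM against 0.632, 0.805 and 0.711 (log2 fold change 3.71, SE 0.11). Erap1, which trims peptides for MHC class I, stood at 28.6, 27.8 and 27.1 FPKM against 19.1, 18.1 and 19.6. Ece1, the endothelin-converting enzyme, and Cpe, carboxypeptidase E, were higher by 0.98 and 0.83. Adamdec1, an ADAM-like gene of macrophages and dendritic cells, reached at most 0.166 FPKM.

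Leaving the threshold of 1 FPKM aside, members at lower levels were also unequal in places. Adamts3, a procollagen-processing enzyme, stood at 0.0975, 0.293 and 0.203 FPKM in dLAMs and at 0.672, 0.86 and 0.509 in mono-macrophages, so that the mono-macrophage libraries were all above. Adamts14, its relative, stood in the opposite order, at 0.525, 0.206 and 0.802 FPKM against 0.0493, 0.012 and 0.00992. Mmp28, epilysin, had the highest single value among members below 1 FPKM, 0.963 in mono-macrophage library 1. These values rest on few fragments and are given without a test.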

How the data were processed

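RNA of 6 libraries, 3 dLAM and 3 mono-macrophage, was analysed. The authors deposited FPKM values of 34652 genes in 1 table. Per the submitters' processing notes, FastQC, HISAT2, featureCounts and mm10 were used; tool versions, strand handling, annotation and gene lengths were not stated in the sources used here. Since these values are normalized, models for counts were avoided. The depth estimate used the smallest steps of the values and GENCODE M21 exon lengths (94.3% of symbols matched), with 30.3% to 41.7% of low values whole within 0.02, so it is rough, and it bears on counting precision only. Genes of at least 1 FPKM in at least 3 libraries, 11317 in all, were tested with limma 3.58.1 (R 4.3.3) on log2(FPKM + 1), with a group term, moderated variances that follow a trend on mean level, and Benjamini-Hochberg adjustment over all of them. Calls needed an adjusted p under 0.05. The fit was also run on simulated data with independent libraries and 200 changed genes. That is far fewer genes than were called here, so the run does not show the error rate in these data. Log2 fold changes are dLAM minus mono-macrophage with standard error (SE) and understate changes of low genes. The members, the 5 lists of related genes and the 10 lists of cell markers were chosen with earlier results of these data known. Every member at threshold and every one just outside is named; from each list of related genes, up to 4 called genes of the highest absolute change are named, with Rhbdf2, Tnf, Reck, Bsg and Lrp1. Cd44, Il6ra, Notch1, Tnfrsf1a, Fn1, Col3a1, Adamdec1, Npepps, Cpd, Cd163, Nid2, Timp3, Timp4, Mmp15, Mmp16, Mmp17, Mmp24, Mmp28, Adamts3, Adamts14, Adam28, Ly6g and the clustered Mmp genes were added after their values were seen. Same-numbered libraries were not treated as pairs. Motifs were searched in RefSeq promoters of GRCm38.p6. Protein sequences were not analysed here, and 1 substrate gene is not reported here.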

Additional observations from a re-analysis of the deposited data

How the results depend on the processing

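Results were recomputed under 17 alternatives: other pseudocounts, filters and scalings, no trend, a replicate block, a term for Y-linked RNA, the 4 libraries with little Y-linked RNA, and each library left out. Mmp14, Timp2 and Mmp8 kept direction and call in each alternative that tested them. Mmp12 and Adam23 did so too, but they reached 1 FPKM in dLAM libraries only, so this is no support for a difference. Over members and list genes, 1161 single-gene values kept their side of the threshold, 85 lost and 24 gained a call, and 0 called values reversed. With no filter, members below 1 FPKM were tested too, and 2888 genes were higher. Of these, 12 were members, with 3 secreted MMP, 4 ADAM, 2 ADAMTS or ADAMTSL and 2 TIMP genes among them. In that setting 1 ADAMTS gene was lower. With a filter of 5 FPKM, 1247 genes were higher, of which 3 were members (0 secreted MMP, 1 ADAM). The Y-linked term gave 8 higher members, 2 of them ADAMTS or ADAMTSL. The libraries with little Y-linked RNA gave 1480 genes higher and 780 lower, 1 lower member (a secreted MMP), 1 higher ADAM gene and 5 lower genes of the pathway lists. ADAM genes higher numbered 1 with values in TPM, with scaling by median ratios and with no trend, and 1 ADAM gene was lower with quantile normalization. On the TPM scale 6 pathway genes were lower. Leaving out 1 library gave 780 (without dLAM library 2) to 1220 genes lower, 1 to 2 membrane MMP and 1 to 3 ADAM genes higher, 0 to 1 ADAM genes lower, 0 to 1 ADAMTS or ADAMTSL genes higher and 5 to 9 pathway genes lower. The cause of these shifts was not tested, except that the filters and left-out libraries change how many genes or samples are tested. Few fragments behind low members such as Timp1 limit their precision.

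Deviations from the group means had correlations of 0.189, -0.147 and -0.089 between same-numbered libraries. The highest value between the groups was 0.386, for dLAM library 3 and mono-macrophage library 2, the libraries with the most Ddx3y. With so few libraries, these values cannot settle whether any libraries were paired. With the replicate block, 1860 genes were higher and 999 lower, with 2 membrane MMP genes higher (Mmp25 at an adjusted p of 0.047), 1 ADAM gene higher and 6 pathway genes lower.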
